A study of Homo sapiens with 4 samples.

Results

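Genes for iron uptake, iron storage, iron export and heme breakdown were followed in melanoma cells in which the transcription factor MYC could be switched on. The set holds 10 genes, TFRC, STEAP3, SLC11A2, SLC25A37, FTH1, FTL, SLC40A1, IREB2, ACO1 and HMOX1, found by their symbols among 25268 gene symbols in the expression table. All 10 had a row, and 8 of them had a mean of at least 1 FPKM (fragments per kilobase of transcript, scaled to the mapped fragments of the library). SK-MEL-28, an established human melanoma line, was used in 2 forms, a vector line with an empty construct and a MYC-inducible line with a Tet-inducible MYC gene. RNA-Seq was performed on each line without doxycycline (Dox) and after 54 h with Dox, in medium that contained G418 for all 4 groups. The labels do not say whether each line is a clone or a pool, and the inducible MYC comes from a transgene rather than from the cells' own MYC promoter.

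Each of the 4 groups is 1 library, so the differences between groups could not be checked against replicates and p-values are absent. A change is the difference of log2(FPKM + 0.1) between 2 libraries, and a gene is said to have risen or fallen where it changed by at least 1.5-fold and had a mean of at least 1 FPKM. FPKM values are per length, so that levels of different genes can be set side by side. The 4 comparisons share libraries with each other, and they are therefore given side by side without any overlap between them. In bulk RNA, fewer cells that express a gene and less of its RNA per cell cannot be told apart.

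Cells take up iron bound to transferrin through the transferrin receptor, reduce it in endosomes and move it into the cytosol, from where it reaches mitochondria for heme and iron-sulfur clusters or is stored in ferritin. Surplus iron leaves through ferroportin, and heme is opened by heme oxygenase, which sets its iron free. A pair of iron regulatory proteins (IRPs) senses cytosolic iron and binds a hairpin, the iron-responsive element (IRE), in the messenger RNAs of these genes. An IRE near the start of an mRNA lets the bound protein block translation, whereas IREs in the 3′ untranslated region (UTR) of TFRC protect that mRNA from decay. Much of this control therefore acts on translation, which mRNA levels do not show.

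The hairpins are shown because they link the ferritin, ferroportin and transferrin receptor mRNAs, whose levels are described next. The canonical GENCODE transcripts on GRCh37 were searched for a C, 5 stem bases, the loop CAGTG followed by A, C or T, and 5 further bases that pair with the stem at all 5 positions, with G-T pairs allowed. The pattern was found at 7 places in 4 of the 10 genes. Each is printed 5′ to 3′ in the sense of the mRNA with T for U, and the capitals mark the bulged C and the loop of 6 bases.
FTH1, 5′ UTR, chr11:61735045-61735074, minus strand: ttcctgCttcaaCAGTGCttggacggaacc
FTL, 5′ UTR, chr19:49468592-49468621, plus strand: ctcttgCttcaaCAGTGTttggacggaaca
SLC40A1, 5′ UTR, chr2:190445386-190445415, minus strand: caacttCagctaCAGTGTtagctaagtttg
TFRC, 3′ UTR, chr3:195777849-195777878, minus strand: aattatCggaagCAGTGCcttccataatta
TFRC, 3′ UTR, chr3:195777445-195777474, minus strand: cattatCgggagCAGTGTcttccataatgt
TFRC, 3′ UTR, chr3:195777380-195777409, minus strand: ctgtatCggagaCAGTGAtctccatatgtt
TFRC, 3′ UTR, chr3:195777333-195777362, minus strand: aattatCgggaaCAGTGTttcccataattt
Among 19553 canonical transcripts with the same search, 10 held the pattern in the 5′ UTR (0.0511%), 97 in the 3′ UTR (0.496%) and 77 in the coding sequence (0.394%). A match describes these letters and is not a measured binding site. Only the canonical transcript was searched, and all 5 pairs were required. A gene without a match, such as SLC11A2, is therefore not shown to lack an IRE, and TFRC may hold more than those printed.

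MYC binds the E-box CACGTG, a palindrome that reads the same on both strands. Promoter windows from 250 bases before to 50 bases after the start were taken from RefSeq on GRCh38.p14, and 7 of the 10 genes matched with 11 windows. FTH1, HMOX1 and SLC25A37 were not among the 7. CACGTG was present in 0 of these 11 windows and in 2548 of 35116 windows of all genes (7.26%). With 11 windows a count of 0 is near that share, and it says nothing of MYC binding elsewhere at these genes.

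The depth of the libraries, read from genes at very low values, was approximately 38000000 to 46000000 fragments, and the FPKM values of a library summed to between 692146 and 715495. MYC itself had 58.3 and 54.8 FPKM in untreated and Dox-treated vector cells and 76.5 and 87.1 FPKM in untreated and Dox-treated MYC-inducible cells. Already without Dox, MYC was higher in the MYC-inducible line than in the vector line. Its log2 change with Dox was 0.19 in MYC-inducible cells, under 1.5-fold, and the log2 difference between the Dox-treated lines was 0.67. The paper reports separately that Dox increased MYC mRNA in the MYC-inducible line by RT-PCR, and that it increased E-box reporter activity. All 8 melanoma markers had a mean of at least 1 FPKM, and their sum was 8578, 8467 and 8433 FPKM in untreated vector cells, Dox-treated vector cells and untreated MYC-inducible cells, against 4666 FPKM in Dox-treated MYC-inducible cells. The sums of the markers of leukocytes, endothelium, hepatocytes and epithelium were at most 2.96 FPKM in any library. Of these, 4 of 7 leukocyte markers, 0 of 5 endothelial, 1 of 6 hepatocyte and 1 of 6 epithelial markers were listed at 0 in all 4. The epithelial sum was 0.922, 1.20 and 1.13 FPKM in untreated vector, Dox-treated vector and untreated MYC-inducible cells. In Dox-treated MYC-inducible cells it was 2.96 FPKM. EPCAM, the 1 epithelial marker with a mean of at least 1 FPKM, had 0.726 FPKM without and 2.71 FPKM with Dox in MYC-inducible cells. Of 10 erythroid markers 5 were listed at 0 in all libraries, HBB among them, and the sum ranged from 3.33 to 3.85 FPKM in 3 libraries and was 11.6 FPKM in Dox-treated MYC-inducible cells. The sum of 8 macrophage markers was 205 to 275 FPKM, and 2 of the 8, CD68 and LYZ, had a mean of at least 1 FPKM. Nearly all of this sum was CD68, with 204 to 273 FPKM. CD14, CSF1R, CD163, MARCO, ITGAM and FCGR1A were at most 0.0349 FPKM in any library. The part of the marker shifts in the iron gene values was not tested.

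In MYC-inducible cells given Dox, HMOX1 fell, and the other 7 of the 8 genes above 1 FPKM stayed under 1.5-fold. Thus 0 of 8 rose, where 5.9% of 11147 genes did, and 1 of 8 fell, where 8.85% did. With 8 genes these counts are near the share of all genes. The median log2 change of the 8 was 0.08, beside -0.03 over all genes. In vector cells 0 of 8 rose and 0 of 8 fell with Dox, where 0.709% and 0.44% of all genes did, and the median of the 8 was -0.01 beside 0.01 over all genes. The 8 changes ran from -0.79 to 0.57 in MYC-inducible cells and from -0.10 to 0.13 in vector cells. Over all 11147 genes the log2 changes had a robust SD of 0.36 and 0.11 in the same order, which describes genes in pairs of single libraries and not replicates.

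Between the lines, both with Dox, 0 of 8 genes were higher and 1, HMOX1, was lower by at least 1.5-fold in MYC-inducible cells, where 6.5% and 8.62% of all genes were. Without Dox 0 of 8 were higher and 0 were lower, where 0.592% and 0.287% of all genes were, and the log2 differences ran from -0.12 for HMOX1 to 0.21 for SLC11A2. In Dox-treated MYC-inducible cells, 6 of the 10 genes lay above the values of all 3 other libraries, 2 lay below them and 2 lay inside their range. The share of all genes that did so was not calculated, so this count describes the 10 genes only. FTL (3181 against at most 3115 FPKM) and ACO1 (18.3 against at most 17.9 FPKM) were above by small margins. STEAP3, also above, had a mean under 1 FPKM.

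**Figure D1:**
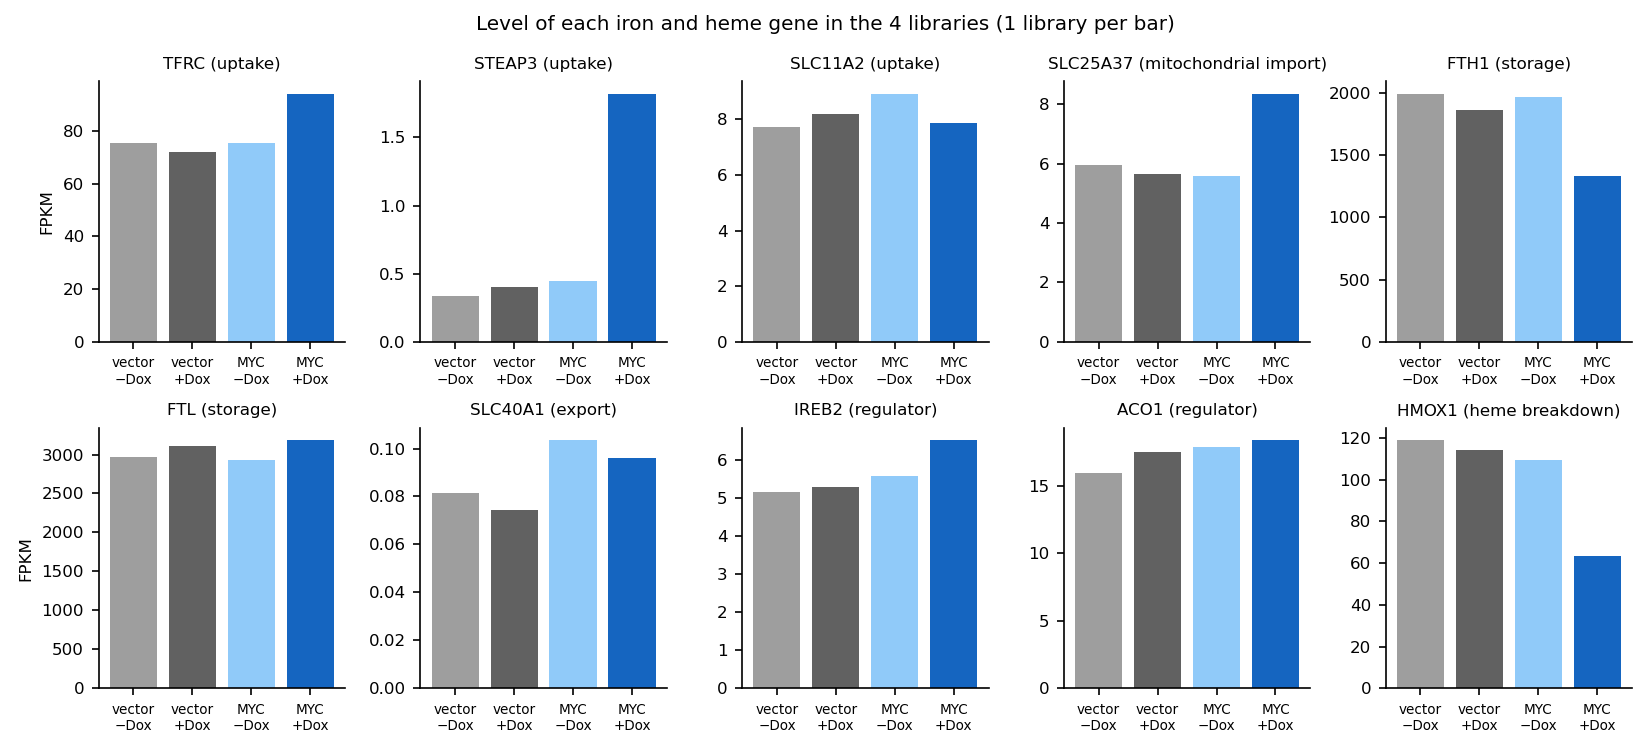
Level of each of the 10 genes in FPKM (vertical axes, each from 0) in the 4 libraries, 1 bar per library, so that no error is drawn. FTH1 and HMOX1 have their lowest bar, and TFRC, STEAP3 and SLC25A37 their highest bar by the widest margins, in Dox-treated MYC-inducible cells, where STEAP3 had 1.82 FPKM and HMOX1 63.5 FPKM.

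The uptake genes differed in sign and size. TFRC, the transferrin receptor, spans positions 195739382 to 195809024 of chromosome 3 on the minus strand. It had 75.6 FPKM in untreated vector cells, 72.1 FPKM in Dox-treated vector cells, 75.5 FPKM in untreated MYC-inducible cells and 94.1 FPKM in Dox-treated MYC-inducible cells. The first 3 values lay within 0.07 of each other on the log2 scale, and the last stood above them. The log2 change with Dox was 0.32 in MYC-inducible cells, with 0.0152 as its approximate counting error, and -0.07 in vector cells. This counting error, like those that follow, covers the sampling of fragments only. For a change it is that of the plain ratio of FPKM values on the log2 scale, without the pseudocount, which matters for genes at low values. A change above that of TFRC was seen in 17.3% of all genes, and TFRC stayed under 1.5-fold.

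STEAP3, the endosomal reductase that turns ferric into ferrous iron, spans positions 119981407 to 120023228 of chromosome 2 on the plus strand. It had 0.333 FPKM in untreated vector cells, 0.406 FPKM in Dox-treated vector cells, 0.446 FPKM in untreated MYC-inducible cells and 1.82 FPKM in Dox-treated MYC-inducible cells. Its mean over the libraries was 0.751 FPKM, below the minimum of 1 FPKM, and it was therefore not counted among the genes that rose. The values correspond to approximately 58, 63, 83 and 319 fragments in the same order. The log2 difference was 1.81 in MYC-inducible cells, the largest of the 10 genes, and 0.22 in vector cells. The plain ratios of FPKM values were 4.08 and 1.22, with counting errors of 0.178 and 0.263 on the log2 scale. The log2 difference in MYC-inducible cells depended on the pseudocount and was 0.96 with a pseudocount of 1 and 2.01 with 0.01. The antisense gene STEAP3-AS1 overlaps STEAP3, and use of the read strand is not stated, so that reads of the pair cannot be told apart.

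SLC11A2 (DMT1), which carries ferrous iron out of endosomes, spans positions 51373184 to 51422349 of chromosome 12 on the minus strand. It had 7.72, 8.19, 8.92 and 7.86 FPKM in untreated and Dox-treated vector cells and in untreated and Dox-treated MYC-inducible cells. The Dox-treated MYC-inducible library was inside the range of the other 3 libraries. The SLC11A2 log2 change was -0.18 with a counting error of 0.0534 in MYC-inducible cells and 0.09 in vector cells, no larger than the log2 difference of 0.21 between the untreated lines.

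SLC25A37 (mitoferrin-1), the carrier that brings iron into mitochondria, lay just under the threshold. It spans positions 23386469 to 23432976 of chromosome 8 on the plus strand. It had 5.94 FPKM in untreated vector cells, 5.65 FPKM in Dox-treated vector cells, 5.57 FPKM in untreated MYC-inducible cells and 8.35 FPKM in Dox-treated MYC-inducible cells. The last library stood above the other 3, which lay within 0.09 of each other on the log2 scale. The log2 change was 0.57 with a counting error of 0.0557 in MYC-inducible cells and -0.07 in vector cells. A larger change was seen in 6.30% of all genes. With libraries scaled by the upper quartile or by the median ratio SLC25A37 passed 1.5-fold, as 1 of 8 genes that rose, where 6.80% and 7.26% of all genes did.

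**Figure D2:**
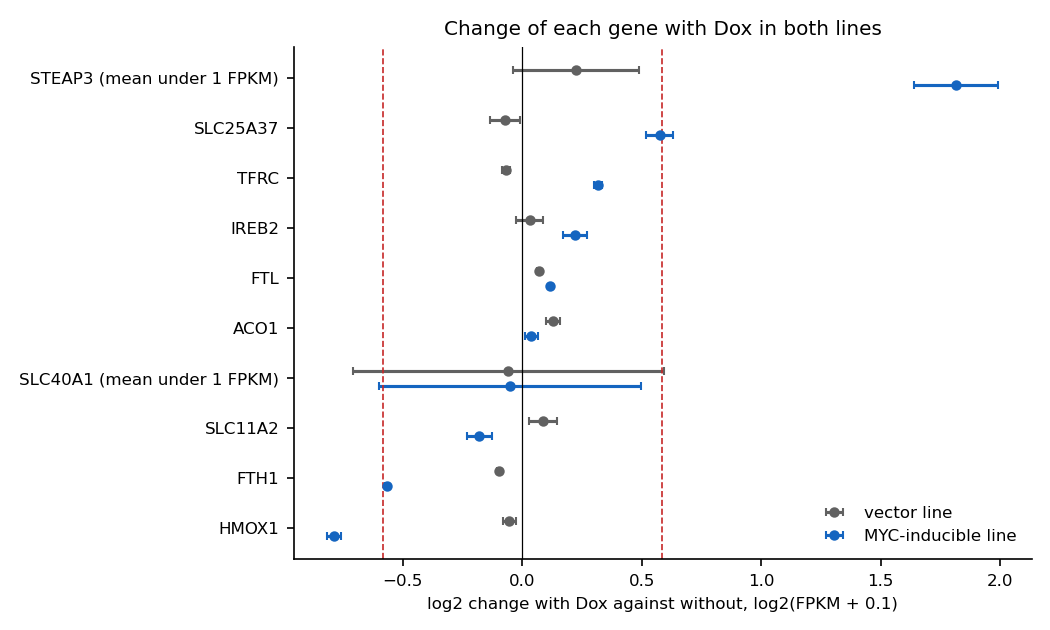
Log2 change with Dox against without Dox (horizontal axis, difference of log2(FPKM + 0.1)) of the 10 genes in vector cells (grey) and MYC-inducible cells (blue), with dashed lines at 1.5-fold. Bars show 1 approximate counting error of the plain ratio without the pseudocount. HMOX1 lies beyond the lower line at -0.79, FTH1 and SLC25A37 lie just inside the lines, and STEAP3, whose mean is under 1 FPKM, lies at 1.81.

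The ferritin subunits differed in sign and size. Ferritin is a shell of heavy chains, which oxidise iron, and light chains, which help to form the mineral core. FTH1, the heavy chain, spans positions 61727190 to 61735106 of chromosome 11 on the minus strand. It had 1990 FPKM in untreated vector cells, 1858 FPKM in Dox-treated vector cells, 1967 FPKM in untreated MYC-inducible cells and 1329 FPKM in Dox-treated MYC-inducible cells. The last library stood below the other 3, which lay within 0.10 of each other on the log2 scale. The log2 change was -0.57 with a counting error of 0.00769 in MYC-inducible cells, 0.676 times the level without Dox and just under 1.5-fold, and -0.10 in vector cells. A lower change was seen in 9.51% of all genes.

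FTL, the light chain, spans positions 49468566 to 49470136 of chromosome 19 on the plus strand. It had 2969, 3115, 2935 and 3181 FPKM in untreated and Dox-treated vector cells and in untreated and Dox-treated MYC-inducible cells. The Dox-treated MYC-inducible library was the highest, by 0.03 on the log2 scale above Dox-treated vector cells. The log2 change was 0.12 in MYC-inducible cells and 0.07 in vector cells, so that both lines had slightly more with Dox.

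The ratio of FTH1 to FTL was 0.670 in untreated vector cells, 0.596 in Dox-treated vector cells, 0.670 in untreated MYC-inducible cells and 0.418 in Dox-treated MYC-inducible cells. Heavy chain mRNA made up 40.1%, 37.4%, 40.1% and 29.5% of the ferritin FPKM in the same order. The ratio was lower with Dox in both lines, and the drop was larger in MYC-inducible cells. Ferritin mRNA as a whole was 0.706%, 0.699%, 0.708% and 0.630% of all FPKM. BEST1 overlaps FTH1 in the annotation and had 11.8 to 15.6 FPKM. Processed copies of the ferritin genes can share reads with them. Of 3 such rows in the table FTH1P18 and FTLP10 were listed at 0, and FTH1P3 had 0.136 to 0.271 FPKM. How reads that match several copies were assigned is not stated.

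The ratio of TFRC to FTH1, an uptake gene to a storage gene with IREs at opposite ends of their mRNAs, was 0.0380 and 0.0388 in untreated and Dox-treated vector cells. It was 0.0384 in untreated MYC-inducible cells and 0.0708 with Dox. The last of these 4 values stood apart from the other 3. These ratios follow from the levels given above and add no separate evidence.

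**Figure D3:**
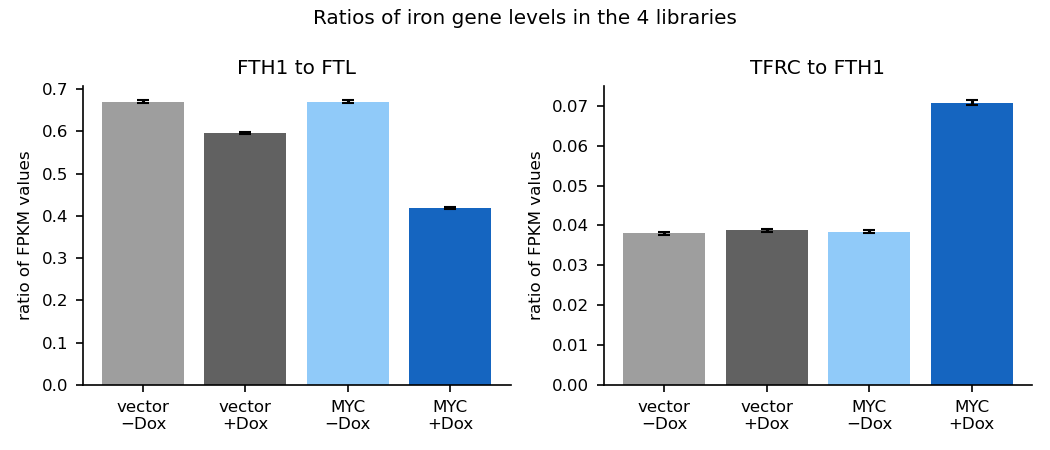
Ratio of FPKM values (vertical axes, from 0) of FTH1 to FTL on the left and TFRC to FTH1 on the right in the 4 libraries, with bars for 1 approximate counting error. In Dox-treated MYC-inducible cells the first ratio is lowest at 0.418 and the second highest at 0.0708, and the first is also lower with Dox in vector cells at 0.596.

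SLC40A1 (ferroportin), the iron exporter of the cell membrane, was close to the limit of the data. It spans positions 190425316 to 190448484 of chromosome 2 on the minus strand. It had 0.0816, 0.0744, 0.103 and 0.0960 FPKM in the 4 libraries in the order used above, from approximately 11, 9, 15 and 13 fragments. The log2 difference with Dox was -0.05 in MYC-inducible cells. The plain ratio of FPKM values was 0.928, with a counting error of 0.548 on the log2 scale, and a difference was not detectable at this depth.

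Both IRPs were expressed and stayed under 1.5-fold. IREB2 (IRP2), which is removed by proteolysis when iron is plentiful, spans positions 78729773 to 78793795 of chromosome 15 on the plus strand. It had 5.18, 5.29, 5.59 and 6.53 FPKM, the last in Dox-treated MYC-inducible cells and above the other 3. Its log2 change was 0.22 with a counting error of 0.0503 in MYC-inducible cells and 0.03 in vector cells.

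ACO1 (IRP1), which turns into a cytosolic aconitase when it carries an iron-sulfur cluster, spans positions 32384601 to 32454767 of chromosome 9 on the plus strand. It had 16.0, 17.5, 17.9 and 18.3 FPKM in the same order. The lowest library was that of untreated vector cells, and the other 3 lay close together. Its log2 change was 0.04 in MYC-inducible cells and 0.13 in vector cells, and the first turned to -0.01 when the libraries were rescaled to the same sum. The ratio of IREB2 to ACO1 was between 0.303 and 0.356 in the 4 libraries.

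HMOX1, the inducible heme oxygenase that opens heme to biliverdin, carbon monoxide and iron, was the member that fell. It spans positions 35776354 to 35790207 of chromosome 22 on the plus strand. It had 119 FPKM in untreated vector cells, 114 FPKM in Dox-treated vector cells, 110 FPKM in untreated MYC-inducible cells and 63.5 FPKM in Dox-treated MYC-inducible cells. The first 3 libraries lay within 0.12 of each other on the log2 scale, and the last was well below them. The log2 change was -0.79 with a counting error of 0.0294 in MYC-inducible cells, 0.579 times the level without Dox, and -0.05 in vector cells. Of all genes 4.48% had a lower change. The log2 difference from Dox-treated vector cells was -0.85. HMOX1 fell under each normalization and pseudocount tried, with log2 values from -0.83 to -0.74, and it did not reach 2-fold.

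The order of the levels was FTL, FTH1, HMOX1, TFRC, ACO1, SLC11A2, SLC25A37, IREB2, STEAP3 and SLC40A1 in both libraries of vector cells. In Dox-treated MYC-inducible cells, TFRC stood above HMOX1 and SLC25A37 above SLC11A2. SLC25A37 and IREB2 were neighbours that changed places between the untreated libraries, with 5.94 and 5.18 FPKM in vector cells and 5.57 and 5.59 FPKM in MYC-inducible cells.

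In a search of 7474 genes whose mean was 5 FPKM or more, those nearest to the member with the largest fall were found by the Euclidean distance between centred log2 values over the 4 libraries. The 5 nearest to HMOX1 were C8orf58, C5orf45, WIPI1, GPR137B and C6orf226. The nearest, C8orf58, had 8.93 FPKM without and 5.08 FPKM with Dox in MYC-inducible cells. The nearest to STEAP3, the member with the largest increase in log2 value, were HBQ1, FRMD6-AS1, NEFL, ODC1 and GEMIN5. Their distances were 0.386 to 0.570, against 0.0138 to 0.0408 for the genes nearest to HMOX1, so none of them lay close. STEAP3 itself, with a mean of 0.751 FPKM, was far under the minimum of 5 FPKM set for the genes searched. HBQ1, which codes for a globin of the alpha cluster, had 2.48, 2.41, 2.87 and 13.6 FPKM in the 4 libraries. With 4 points, such likeness is a description of 4 libraries.

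Beyond the 10 genes, lists of other iron, heme and NRF2 pathway genes held 120 genes, of which 119 had a row and 95 a mean of at least 1 FPKM. In MYC-inducible cells given Dox 3 of the 95 rose and 10 fell, beside 5.9% and 8.85% of all genes. In vector cells 0 rose and 0 fell, beside 0.709% and 0.44% of all genes, and with 95 genes a count of 0 is near those shares. The median log2 change of the 95 was 0.02 in each of the 2 lines. The single lists below are small and were chosen with earlier results known, so their counts are descriptions only.

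In heme breakdown, downstream of HMOX1, biliverdin is reduced to bilirubin by biliverdin reductases. BLVRB had 108 and 114 FPKM in untreated and Dox-treated vector cells and fell from 102 to 51.1 FPKM in MYC-inducible cells, a log2 change of -0.995. It was the 1 gene of 8 tested in heme transport and breakdown that fell, and 0 rose, beside 8.85% and 5.9% of all genes. BLVRA, which was chosen after its values were seen, had 119 and 84.1 FPKM in MYC-inducible cells (log2 -0.50) and 129 and 129 FPKM in vector cells. HMOX2, the constitutive heme oxygenase, was chosen in the same way and had 68.3 and 95.2 FPKM (log2 0.48) in MYC-inducible cells.

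In MYC-inducible cells 5.9% of all genes rose and 8.85% fell, with a median log2 change of -0.03. In heme synthesis 0 of 13 genes tested rose and 0 fell in MYC-inducible cells, with a median log2 change of 0.12. The largest change was that of ABCB10, a mitochondrial transporter that holds mitoferrin-1 stable in developing red cells, with 5.41 FPKM without and 7.74 FPKM with Dox (log2 0.51). ABCB10 had a log2 change of -0.20 in vector cells. In iron-sulfur cluster assembly 30 of 31 genes were tested, 2 rose and 0 fell in MYC-inducible cells, and the median was 0.18. In vector cells the median of this list was 0.06, beside 0.01 over all genes. With Dox 24 of the 30 genes were higher in vector cells and 22 in MYC-inducible cells. GLRX3, a cytosolic glutaredoxin, rose from 122 to 187 FPKM (log2 0.62) in MYC-inducible cells. It was under 1.5-fold at 0.57 when libraries were rescaled to the same sum. In vector cells the log2 change of GLRX3 was 0.11.

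Of 8 other genes of iron uptake and reduction 0 rose and 3 fell in MYC-inducible cells, beside 5.9% and 8.85% of all genes. MELTF, which the table lists as MFI2 and which codes for the iron-binding surface protein melanotransferrin, fell from 427 to 262 FPKM (log2 -0.71). In vector cells it had 427 FPKM without and 522 FPKM with Dox (log2 0.29). MELTF is a melanoma antigen, and the sum of the melanoma markers given above was likewise lower in that library. Most of that sum was the marker PMEL, with 6178 FPKM without and 3394 FPKM with Dox. A link between these markers and MELTF was not tested. The ferrireductase CYBRD1 fell from 7.78 to 4.18 FPKM (log2 -0.88) in MYC-inducible cells. It had 6.71 FPKM without and 6.02 FPKM with Dox in vector cells (log2 -0.15), so that untreated MYC-inducible cells were the highest library. The CYBRD1 log2 difference between the Dox-treated lines was -0.52, under 1.5-fold. SLC22A17, a receptor for lipocalin-2, fell from 3.02 to 1.15 FPKM (log2 -1.32) in MYC-inducible cells. Transferrin (TF) and the second transferrin receptor (TFR2), chosen after their values were seen, were at most 0.302 FPKM.

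In the control of the IRPs 0 of 7 genes rose and 2 fell, beside 5.9% and 8.85% of all genes. FBXL5, the iron-sensing subunit of the ligase that marks IREB2 for proteolysis, had 9.87 and 10.1 FPKM in vector cells and fell from 10.6 to 6.49 FPKM in MYC-inducible cells (log2 -0.70). ZFP36 (tristetraprolin), an mRNA-decay factor that can bind TFRC mRNA, fell from 4.05 to 2.48 FPKM (log2 -0.68), with -0.22 in vector cells and -0.30 between the Dox-treated lines. With a pseudocount of 1 ZFP36 was under 1.5-fold at -0.54. Of 3 other genes known for an IRE in their mRNA EPAS1, the hypoxia factor HIF-2 alpha, fell from 4.13 to 2.40 FPKM (log2 -0.76), and 0 rose.

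Of 5 genes of iron chaperones and ferritin turnover 0 rose and 0 fell, and the largest change was that of HERC2, a ubiquitin ligase, with a log2 change of -0.12. NCOA4, the receptor that delivers ferritin to lysosomes, was chosen after its values were seen and had 26.5 FPKM without and 26.4 FPKM with Dox in MYC-inducible cells. Beside 5.9% and 8.85% of all genes, 0 of 3 genes of iron export and the hepcidin axis rose and 1 fell. This was ERFE (FAM132B in the table), the hormone erythroferrone, with 3.74 FPKM without and 2.26 FPKM with Dox (log2 -0.70). It had 2.78 and 2.54 FPKM in untreated and Dox-treated vector cells, so that untreated MYC-inducible cells were the highest library, and the log2 difference between the Dox-treated lines was -0.16. With a pseudocount of 1 the ERFE (FAM132B) value was -0.54, under 1.5-fold. Hepcidin itself (HAMP) had at most 0.0951 FPKM.

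HMOX1 and BLVRB are also targets of the stress factor NRF2, which the heme-sensing repressor BACH1 opposes. Of 13 further NRF2 targets 1 rose and 1 fell in MYC-inducible cells, with a median log2 change of 0.13. The shares of all genes were 5.9% and 8.85%. NQO1, a quinone reductase, fell from 427 to 257 FPKM (log2 -0.74), and it had 417 FPKM without and 316 FPKM with Dox in vector cells (log2 -0.40). ME1, a malic enzyme, rose from 9.85 to 14.9 FPKM (log2 0.59), just past 1.5-fold, and was under it at 0.55 with a pseudocount of 1 and when libraries were rescaled to the same sum. Of 6 genes for NRF2, its inhibitor KEAP1, BACH1 and small MAF proteins 0 rose and 1 fell. MAFF had 68.3 and 80.5 FPKM in vector cells and fell from 67.3 to 42.9 FPKM in MYC-inducible cells (log2 -0.65).

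**Figure D4:**
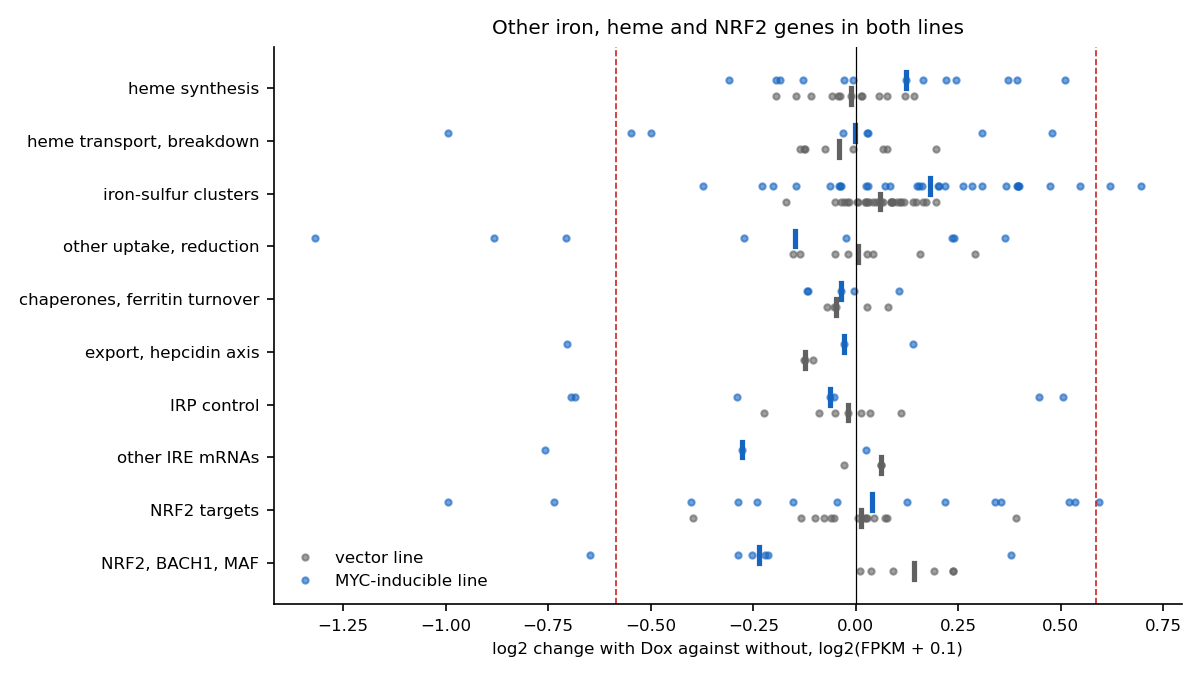
Log2 change with Dox against without Dox (horizontal axis, difference of log2(FPKM + 0.1)) of genes that averaged 1 FPKM or more, in 10 lists, in vector cells (grey) and MYC-inducible cells (blue), 1 point per gene, with a short bar at each median and dashed lines at 1.5-fold. The vector cells stay inside the dashed lines in every list shown, and MYC-inducible cells have 10 different genes beyond the lower line and 3 beyond the upper one. Of all genes 8.85% fell and 5.9% rose in MYC-inducible cells, and 0.44% fell and 0.709% rose in vector cells.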

How the data were processed

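Total RNA of 4 SK-MEL-28 cultures was sequenced. The submitters' processing notes name TopHat2 2.0.14, Cufflinks and the build hg19 (GRCh37). FPKM values of each gene symbol were deposited by the authors in 1 table. The strand setting and annotation are not given in the sources used here.

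Of 27032 rows, 1 that named no gene was dropped and rows of a symbol were added up. Because FPKM values are not counts and each condition has 1 library, no count model and no test was used. Approximate fragments came from genes under 0.2 FPKM, where 58.8% to 62.3% of values lay within 0.1 of a whole number of fragments. This depth sets the counting errors, which leave out differences between cultures. The calculation was tested on simulated fragments with known changes and no differences between cultures, which checks the arithmetic only. Positions came from GENCODE release 44 on GRCh37.

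The members and lists were chosen with earlier results of these data known. The named genes are the 10 members, list genes past 1.5-fold in MYC-inducible cells (or, with none, the largest change), ferritin pseudogene rows, and the 5 genes nearest in pattern to the members with the largest rise and fall. The values of 1 gene under this rule are not reported here. The alternatives were other pseudocounts, filters, scalings and fold thresholds, the mean, the largest row of a symbol and added pseudogene rows. Python 3.11.15, numpy 2.4.6 and pandas 2.3.3 were used.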

Additional observations from a re-analysis of the deposited data

Results flagged for a closer look

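In single libraries the log2 change with Dox had opposite signs in MYC-inducible and vector cells for the genes that follow. These differences between the lines were not tested, and each value is the change in MYC-inducible cells minus that in vector cells. Of the 10 genes of the set, 3 were of this kind, with 0.38 for TFRC, 0.65 for SLC25A37 and -0.27 for SLC11A2. The share of all genes with opposite signs was not calculated, so this count describes the 10 genes only. Of the other iron, heme and NRF2 genes named, the difference was -1.07 for BLVRB, -0.996 for MFI2 (MELTF), -1.48 for SLC22A17 and -0.73 for FBXL5. It was -0.82 for EPAS1, -0.88 for MAFF and 0.67 for ME1. For genes named as the largest change of a list with none past 1.5-fold it was 0.70 for ABCB10 and -0.20 for HERC2. Among genes named as the nearest to STEAP3 it was 2.24 for HBQ1 and 1.37 for GEMIN5. For the globin genes described under the other observations it was 3.29 for HBA1 and 4.23 for HBM. HBM had a mean of 0.509 FPKM, under the minimum. Its change in vector cells was -1.54, from 0.426 to 0.0805 FPKM. Several vector changes were smaller than 0.11, the robust SD of all genes there, so their sign is uncertain. They include -0.04 for HBQ1, -0.05 for GEMIN5, 0.03 for FBXL5, and those of TFRC, SLC25A37 and SLC11A2.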

How the results depend on the processing

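With a single library for each condition no pairs of replicates exist, and no library could be left out. Of 124 recalculated summary values 111 kept their size, within 1.5 times for a count and within 0.11 for a log2 median, the robust SD of all genes in vector cells. With no filter, STEAP3 counted as the 1 member that rose in MYC-inducible cells and against Dox-treated vector cells, and 5 other iron and heme genes rose, where 1138 of 25268 genes rose in MYC-inducible cells. With a minimum mean of 5 FPKM, 6 of the other genes fell, beside 7.35% of all genes. Rescaling to the same sum brought the members that fell in MYC-inducible cells to 2, with FTH1 at -0.61, and the other genes that rose to 1, while 10.3% of all genes fell and 4.71% rose. Scaling by the median ratio and by the upper quartile each gave 1 member that rose, SLC25A37. At 2-fold, 0 members fell in either comparison, 0 other genes rose and 1 fell, beside 1.05% and 2.05% of all genes in MYC-inducible cells. With a pseudocount of 1, 2 other genes rose and 8 fell, beside 4.49% and 6.17% of all genes. The mean of the members in MYC-inducible cells was -0.033, against a median of 0.08. Of 428 values for single genes 413 moved by less than 0.11, and 0 that passed 1.5-fold changed sign. Taking the largest row of a symbol left the single-gene values the same, so that part of the tally could not move. Adding ferritin pseudogene rows, which held at most 0.271 FPKM, could hardly change the ferritin ratios and left them within their counting errors. Depth limits STEAP3 and SLC40A1 most.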

Other observations

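Globins carry heme, and their genes were looked at after HBQ1 had been found nearest to STEAP3 in pattern, so that they were chosen after their values were seen. HBA1 had 0.711 and 0.368 FPKM in untreated and Dox-treated vector cells and 0.942 and 5.78 FPKM in MYC-inducible cells (log2 2.496 with Dox in the latter). HBA2, a near-identical copy whose reads can be split with HBA1, had 0.332, 0.343, 0.464 and 2.99 FPKM in the same order (log2 2.45). HBM had 0.426, 0.0805, 0.133 and 1.40 FPKM. For each of these genes the Dox-treated MYC-inducible library was the highest of the 4. The beta-type genes HBB, HBD, HBG1 and HBG2 were listed at 0 in all 4 libraries. HBE1, the embryonic beta-type globin, was listed at 0 in untreated vector cells and had 0.125, 0.379 and 0.366 FPKM in the other 3. ALAS2, the erythroid enzyme of heme synthesis, was listed at 0 as well. HBZ, the embryonic alpha-type globin, had 0.402, 0.259 and 0.107 FPKM and was listed at 0 in Dox-treated MYC-inducible cells. All these levels are low, and no replicate check exists.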
